A study of Arabidopsis thaliana with 6 samples.

Results

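The 38 nuclear genes described here encode enzymes of the tricarboxylic acid (TCA) cycle, the malate-metabolising enzymes of mitochondria and subunits of respiratory complexes I to V with cytochrome c. They were chosen by function as a list of loci, and all 38 were found among the 27416 genes of the series. Of them, 16 belong to the TCA cycle and malate metabolism and 22 to the respiratory chain and ATP synthase. The plants were Arabidopsis thaliana, Columbia ecotype, kept on MS medium to an age of 21 days, and RNA was taken from vegetative tissue, as 3 libraries of wild-type plants and 3 libraries of plants labelled as a ucp1 ucp3 double mutant. The mutated genes encode uncoupling proteins, carriers of the inner mitochondrial membrane, and the labels do not name the mutant alleles. Estimated counts were summed per gene, and levels are given as CPM (reads of a gene relative to the size of its library) scaled between libraries, except where levels of different genes are compared, for which the deposited TPM, a unit per transcript length, were used.

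In the TCA cycle, acetyl-CoA made from pyruvate is joined to oxaloacetate and oxidised stepwise, and the electrons pass as NADH to complex I or, at succinate dehydrogenase, directly to complex II. Complex III, cytochrome c and complex IV carry them on to oxygen, and complex V, the ATP synthase, uses the resulting proton gradient. Uncoupling proteins are known for acting on that gradient or on the exchange of metabolites across the same membrane. In leaves, mitochondria also oxidise and export malate, fumarate and citrate, and plants hold several of these enzymes outside mitochondria as well.

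The libraries held between 1183612 reads, in replicate 3 labelled ucp1 ucp3, and 11296137 reads, in replicate 2 of that group. Replicate 3 labelled ucp1 ucp3 also stood apart on the first principal component, at 59.3 against -28.8 to 9.42 for the other 5 libraries, so the main values that it moves are also given without it. UCP1, named PUMP1 in the annotation, had 69.2, 67.3 and 75.3 CPM in the wild-type libraries, against 67.2, 46.6 and 53.3 CPM in those labelled ucp1 ucp3, and UCP3 had 12.3, 16.1 and 13.0 CPM, against 8.68, 10.2 and 10.8 CPM. Both were lower without overlap but present in every library, and neither passed the test (edgeR adjusted p = 0.226 and 0.224), so the group is called the labelled mutants and directions rest on the labels. The tissue held leaf and root markers. The 4 leaf markers summed to 28801 to 31192 CPM in the wild-type libraries, against 34234 to 43856 CPM in the labelled mutants, and the 3 root markers to 1692 to 2415 and 1467 to 1962 CPM. Of the leaf markers, RBCS1A overlapped between the groups (11611 to 12436 against 11145 to 12669 CPM). RCA, CAB1 and CAB2 were higher in the labelled mutants without overlap. PYK10 made up most of the root sum, and each root marker overlapped between the groups. The 3 floral organ markers summed to at most 6.32 CPM, and of the 3 seed storage markers OLEO1 and CRU3 were at 0 in every library. In bulk tissue, fewer cells of a type and less RNA per cell cannot be told apart.

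All 38 genes passed the filter on low counts, with at least 12 reads in every library. None passed the test over all genes (edgeR quasi-likelihood test, adjusted p under 0.05): 0 were higher and 0 were lower, where the share of all 17415 tested genes was 0.781% higher and 0.482% lower. At an unadjusted p under 0.05 there were 2 of the 38, FUM2 and mMDH1, against 16.4% of all tested genes. DESeq2 called these same 2, FUM2 higher (adjusted p = 0.0473) and mMDH1 lower (adjusted p = 0.0264). That fit called 389 of the 9264 genes to which it gave an adjusted p. The median log2 fold change of the 38 was -0.07, against 0.00 over all tested genes. Of the 38 estimates, 27 (71.1%) were below 0, against 50.3% of all tested genes. Without wild-type replicate 3 the median was -0.01, with 21 below 0, and without ucp1 ucp3 replicate 3 it was -0.03, with 24 below 0.

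Most of the 38 estimates were narrow. The 95% interval lay within a 1.5-fold change in either direction for 35 of 38 genes, and the exceptions were FUM2, mMDH1 and CYTC-2. The share was 49.5% of all tested genes, which were not matched to the 38 in level. It was 90.1% of the 71 other tested genes of these pathways, so narrow intervals were not particular to the 38. For the 22 genes of the respiratory complexes, ATP synthase and cytochrome c, the intervals together ran from -0.64 to 0.50 on the log2 scale. The 3 labelled mutants lay above all wild-type libraries in 1 of the 38 genes, against 11.2% of all tested genes, and below them in 4 of the 38, against 12.4%. Those 5 genes were FUM2 above, and mMDH1, ATP5, E1 ALPHA and FRO1 below.

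**Figure D1:**
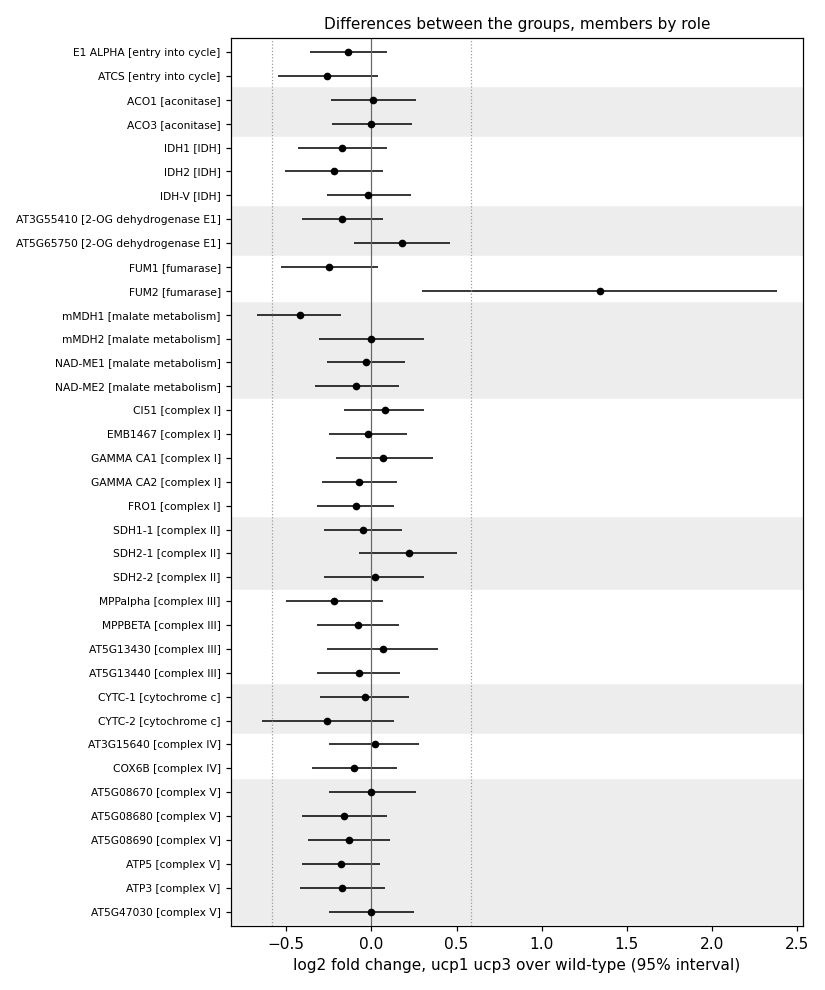
Log2 fold change of the genes drawn from the set of 38, labelled mutants over wild-type (point), with its 95% interval from the edgeR fit (line), grouped by role; dotted lines mark a 1.5-fold change. Among the genes drawn, FUM2, at 1.34, is the one estimate beyond 1.5-fold, and mMDH1, at -0.42, is the other gene whose interval leaves out 0.

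The largest log2 fold changes were those of FUM2, a fumarase gene, and mMDH1, a mitochondrial malate dehydrogenase gene. In mitochondria, fumarase and malate dehydrogenase act at the last steps of the cycle. FUM1 (AT2G47510, chromosome 2) encodes the mitochondrial fumarase, and FUM2 (AT5G50950, chromosome 5) encodes a cytosolic fumarase known for fumarate accumulation in leaves. FUM2 had 17.8, 15 and 21.6 CPM in wild-type replicates 1 to 3 and 32.4, 37.2 and 90.3 CPM in labelled mutant replicates 1 to 3. Every labelled mutant was above every wild-type library, and replicate 3 was far above the others. FUM1 had 147, 119 and 155 CPM in the wild-type libraries, against 128, 125 and 95.7 CPM in the labelled mutants. The groups of FUM1 overlapped, with the lowest value again in labelled mutant replicate 3.

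The log2 fold change of FUM2 was 1.34 (95% interval 0.30 to 2.38; edgeR adjusted p = 0.203). For FUM1 it was -0.25 (-0.53 to 0.04; edgeR adjusted p = 0.389), and -0.15 without ucp1 ucp3 replicate 3. Without ucp1 ucp3 replicate 3 the estimate for FUM2 was smaller, 0.95 on the log2 scale, and passed the test (edgeR adjusted p = 0.0333). That fit called 73 of 17811 genes. With any other library left out FUM2 did not pass. Its edgeR adjusted p then ranged from 0.164, without ucp1 ucp3 replicate 2, to 0.398, without wild-type replicate 1. The leaf marker sum was highest (43856 CPM) and the root marker sum lowest (1467 CPM) in that replicate, which was also the shallowest library. PYK10 made up 1444 CPM of that root sum, and IRT1 (11.7 CPM) and TIP2;3 (10.8 CPM) lay within their wild-type ranges. Of the leaf markers, RBCS1A differed little there, at 12612 CPM against 11611 to 12436 CPM in wild-type. The part of tissue make-up or depth in the FUM2 value was not tested. The sum of both fumarase genes differed less, at 158 ± 22.0 CPM (SD, n = 3) for wild-type, against 169 ± 14.3 CPM in the labelled mutants.

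Within the fumarase family the balance of the copies moved by 19.2 percentage points. FUM2 made up 10.8%, 11.2% and 12.3% of fumarase CPM in wild-type replicates 1 to 3. In labelled mutant replicates 1 to 3 its share was 20.3%, 22.9% and 48.5%, with no overlap between the groups. The exact two-sided permutation test of the FUM1 share gave p = 0.1, the smallest value that 3 against 3 samples allow, and 0.22 after adjustment over 11 families. Leaving out ucp1 ucp3 replicate 3, the difference in the FUM1 share was -10.2 points, and leaving out replicate 1 of that group it was -24.3 points.

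The copies can be told apart by sequence. In the RefSeq annotation of TAIR10.1, 3.30% of the 31-mers of FUM2 occur in another gene's mRNA on the same strand, the main partner being FUM1, and the coding sequences were identical at 87.4% of aligned bases. The middle 90 bases of the FUM1 coding sequence and the aligned stretch of FUM2 are shown because the share above rests on reads that fall on such differences; capitals mark the 9 bases that differ.
FUM1: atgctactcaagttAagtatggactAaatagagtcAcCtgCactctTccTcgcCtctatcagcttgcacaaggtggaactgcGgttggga
FUM2: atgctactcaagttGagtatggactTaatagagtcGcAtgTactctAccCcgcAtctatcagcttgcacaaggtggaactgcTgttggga

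Mitochondrial malate dehydrogenase, which oxidises malate to oxaloacetate, is encoded by mMDH1 (AT1G53240, chromosome 1) and mMDH2 (AT3G15020, chromosome 3). mMDH1 had 326, 309 and 341 CPM in wild-type replicates 1 to 3 and 242, 265 and 216 CPM in labelled mutant replicates 1 to 3. The groups did not overlap, with 325 ± 15.9 CPM for wild-type and 241 ± 24.6 CPM for the labelled mutants (SD, n = 3). mMDH2 had 23.5, 23.0 and 24.6 CPM in the wild-type libraries, against 23.3, 25.1 and 20.8 CPM in the labelled mutants, and its groups overlapped.

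The log2 fold change of mMDH1 was -0.42 (-0.67 to -0.18), a level of 74.5% of wild-type, and its edgeR adjusted p was 0.0782. Its unadjusted p of 0.002 was the smallest of the 38 genes. Without 1 library the edgeR adjusted p ranged from 0.0506, without ucp1 ucp3 replicate 2, to 0.242, without wild-type replicate 1. Leaving out ucp1 ucp3 replicate 3, the log2 fold change of mMDH1 was -0.35 (edgeR adjusted p = 0.216). The log2 fold change of mMDH2 was 0.00 (-0.31 to 0.31; edgeR adjusted p = 1.00).

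The share of mMDH1 in the CPM of both copies was 93.3%, 93.1% and 93.3% in wild-type and 91.2%, 91.4% and 91.2% in the labelled mutants. These were the tightest values of any family, with SDs of 0.105 and 0.0836 points. They rest on few reads of mMDH2, 83 in wild-type replicate 2 and 23 in labelled mutant replicate 3. With so few reads, these SDs do not measure how precisely the share is known. The difference of -1.94 points had an exact two-sided permutation p of 0.1, the smallest possible, and 0.22 after adjustment over the 11 families. It lay between -2.00 and -1.91 points with any library left out. In the annotation, 14.3% of the mMDH2 31-mers lie in another gene's mRNA on the same strand, mainly the neighbouring AT3G15010, so part of its reads is uncertain. The middle 90 bases of both coding sequences differ at 11 positions, in capitals, and are shown as those by which reads of the copies separate.
mMDH1: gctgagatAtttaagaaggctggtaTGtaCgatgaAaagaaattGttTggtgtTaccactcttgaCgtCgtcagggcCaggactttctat
mMDH2: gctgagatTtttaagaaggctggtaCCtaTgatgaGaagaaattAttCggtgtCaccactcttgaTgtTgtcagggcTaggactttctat

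**Figure D2:**
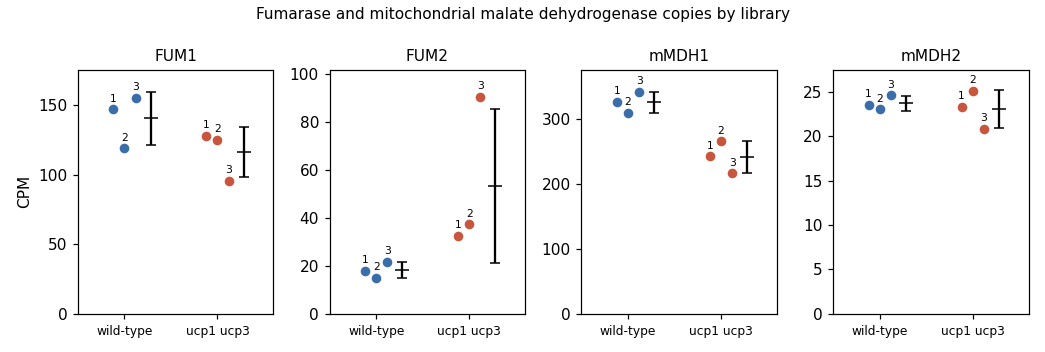
CPM of FUM1, FUM2, mMDH1 and mMDH2 in each library (points, with the replicate number), with the mean and SD of each group of 3 (bars); each vertical axis starts at 0. The 3 labelled mutants lie above wild-type for FUM2 (32.4 to 90.3 against 15 to 21.6 CPM) and below it for mMDH1 (216 to 265 against 309 to 341 CPM), and the groups of FUM1 and mMDH2 overlap.

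Malic enzyme, the other malate-using enzyme of mitochondria, converts malate to pyruvate and is encoded by NAD-ME1 and NAD-ME2. NAD-ME1 had 170.3, 181 and 187 CPM in the wild-type libraries, against 162, 185 and 179 CPM in the labelled mutants. NAD-ME2 had 89.9, 80.9 and 98.8 CPM in the wild-type libraries, against 81.6, 83.8 and 91.2 CPM in the labelled mutants. Both genes overlapped between the groups, and their log2 fold changes were -0.03 (-0.26 to 0.20) and -0.09 (-0.33 to 0.16). NAD-ME1 held 66.7 ± 2.11% of the pair in wild-type and 67.2 ± 1.45% in the labelled mutants (SD, n = 3). The malate metabolism genes together had 618 ± 29.7 CPM in the wild-type libraries, against 525 ± 29.8 CPM in the labelled mutants, and mMDH1 made up most of that gap.

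At the entry into the cycle, E1 ALPHA (AT1G59900) encodes a subunit of pyruvate dehydrogenase, and ATCS (AT2G44350, also named CSY4) encodes mitochondrial citrate synthase. E1 ALPHA had 162, 169.5 and 183 CPM in the wild-type libraries, against 151, 157 and 161 CPM in the labelled mutants, just below wild-type without overlap. ATCS had 194, 173 and 237 CPM in the wild-type libraries, against 184, 176 and 138 CPM in the labelled mutants, with overlap. The log2 fold changes were -0.14 (-0.36 to 0.09; edgeR adjusted p = 0.575) and -0.26 (-0.55 to 0.04; edgeR adjusted p = 0.380). For ATCS the estimate was -0.12 without wild-type replicate 3, and it was -0.16 when ucp1 ucp3 replicate 3 was left out.

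Among the aconitase genes, whose enzyme turns citrate into isocitrate, ACO1 (AT4G35830) had 628, 694 and 709 CPM in the wild-type libraries, against 639, 661 and 750.2 CPM in the labelled mutants. ACO3 (AT2G05710) had 299, 287 and 334 CPM against 308, 316 and 296 CPM. Both genes overlapped between the groups, with log2 fold changes of 0.01 (-0.24 to 0.26) and 0.00 (-0.23 to 0.24).

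NAD-dependent isocitrate dehydrogenase is built from regulatory subunits, here IDH1 and IDH2, and catalytic subunits, here IDH-V. IDH1 had 80.6, 83.9 and 104 CPM in the wild-type libraries, against 81.3, 79.6 and 76.7 CPM in the labelled mutants. IDH2 had 47.7, 51.8 and 64.1 CPM against 50, 46.6 and 41.5 CPM, and IDH-V had 101, 101 and 113 CPM against 113, 99.7 and 95.7 CPM. The groups overlapped for each, with log2 fold changes of -0.17, -0.22 and -0.02. Without wild-type replicate 3, which had the highest values of IDH1 and IDH2, their estimates were -0.05 and -0.08. Per length, the regulatory pair stood at 1.24, 1.31 and 1.45 times the catalytic subunit in wild-type and at 1.13, 1.23 and 1.2 times in the labelled mutants, so that the labelled mutants were lower without overlap; this ratio was not tested.

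The E1 component of 2-oxoglutarate dehydrogenase, which makes succinyl-CoA, has 2 genes. AT3G55410 had 164, 173 and 198 CPM in the wild-type libraries, against 147, 165 and 164 CPM in the labelled mutants. AT5G65750 had 50.6, 55.7 and 67.4 CPM against 70.8, 60.3 and 66.8 CPM. Each gene overlapped between the groups, and the log2 fold changes were -0.17 (-0.41 to 0.07) and 0.18 (-0.10 to 0.46). The share of AT3G55410 in the pair was 76.4%, 75.6% and 74.6% in wild-type and 67.4%, 73.3% and 71.1% in the labelled mutants, with no overlap. The difference of -4.94 points had an exact two-sided permutation p of 0.1, the smallest possible, and 0.22 after adjustment. It was -3.36 points without ucp1 ucp3 replicate 1 and -6.28 points without ucp1 ucp3 replicate 2.

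Complex I oxidises NADH. CI51 (AT5G08530) and EMB1467 (AT5G37510, also named CI76) encode subunits of its peripheral arm, and FRO1 (AT5G67590) a subunit named for a cold-sensitive mutant. CI51 had 187, 185 and 189 CPM in the wild-type libraries, against 218, 192 and 178 CPM in the labelled mutants. EMB1467 had 169, 188 and 191 CPM against 186, 178 and 177 CPM, and both genes overlapped between the groups. FRO1 had 97.2, 90.9 and 92.5 CPM in the wild-type libraries, against 88.7, 86.7 and 88.5 CPM in the labelled mutants, a small gap without overlap (log2 fold change -0.09, -0.32 to 0.13; edgeR adjusted p = 0.729).

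The gamma carbonic anhydrases are subunits of complex I in plants that form a domain on its matrix side. GAMMA CA1 had 30.1, 28.3 and 29.1 CPM in the wild-type libraries, against 32.0, 28.6 and 33.4 CPM in the labelled mutants. GAMMA CA2 had 115, 118 and 119.9 CPM against 113, 109 and 116 CPM. Each gene overlapped between the groups, while the share of GAMMA CA1 in the pair was 19.8 ± 0.783% in wild-type and 21.7 ± 0.863% in the labelled mutants without overlap (exact two-sided permutation p = 0.1, adjusted 0.22). For GAMMA CA2, 27.3% of the 31-mers are antisense to AT1G47250; the library kit kept strand, but whether the counting used it is not given in the sources used here, so part of its value is uncertain. The 5 complex I genes summed to 610.3 ± 11.5 CPM in the wild-type libraries, against 608 ± 26.0 CPM in the labelled mutants (SD, n = 3).

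Complex II, succinate dehydrogenase, belongs to both the cycle and the respiratory chain. SDH1-1 (AT5G66760), its flavoprotein gene, had 149, 135 and 159 CPM in the wild-type libraries, against 151, 139 and 137 CPM in the labelled mutants. The iron-sulfur subunit gene SDH2-1 had 74.1, 71.5 and 63.7 CPM against 79.1, 70.8 and 102 CPM, and its copy SDH2-2 had 31.9, 36.3 and 34.6 CPM against 39.8, 31.3 and 32.5 CPM. All 3 overlapped between the groups, with the highest SDH2-1 value in labelled mutant replicate 3. The largest of the 3 log2 fold changes was that of SDH2-1, 0.22 (-0.07 to 0.50; edgeR adjusted p = 0.466), and it was 0.10 without ucp1 ucp3 replicate 3. In the annotation 12.1% of the SDH2-1 31-mers are shared on the same strand and 17.6% of those of SDH2-2 lie opposite another gene. Per length the SDH2 genes together stood at 0.983 ± 0.121 times SDH1-1 in wild-type and 1.11 ± 0.126 times in the labelled mutants.

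Complex III passes electrons from ubiquinol to cytochrome c, and in plants its core subunits are also the peptidase that removes mitochondrial targeting sequences. MPPalpha (AT3G16480) had 55.3, 51.2 and 46.9 CPM in the wild-type libraries, against 44.1, 48.3 and 34.3 CPM in the labelled mutants. MPPBETA (AT3G02090) had 283, 261 and 319 CPM against 288, 267 and 262 CPM. Both overlapped between the groups, with log2 fold changes of -0.22 (-0.50 to 0.07) and -0.08 (-0.32 to 0.16). For MPPalpha it was -0.14 without ucp1 ucp3 replicate 3. Per length MPPBETA exceeded MPPalpha 5.19 ± 0.893 times in wild-type, and 1.14 ± 0.0672 times when the second alpha gene, AT1G51980, was added to MPPalpha (SD, n = 3).

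The Rieske iron-sulfur protein of complex III is encoded by the neighbouring genes AT5G13430 and AT5G13440. AT5G13430 had 63.7, 62.3 and 70.4 CPM in the wild-type libraries, against 83.4, 67.2 and 46.9 CPM in the labelled mutants, which lay on both sides of wild-type. AT5G13440 had 109.7, 95.8 and 97.8 CPM against 102, 97.7 and 84.9 CPM. The copies share 21.3% and 18.0% of their 31-mers with another gene on the same strand, mainly with each other, and their separate values are uncertain. Their sum was 167 ± 7.73 CPM in the wild-type libraries, against 161 ± 27.2 CPM in the labelled mutants (SD, n = 3).

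Cytochrome c, the mobile carrier between complexes III and IV, has CYTC-1 (AT1G22840) and CYTC-2 (AT4G10040). CYTC-1 had 113, 116 and 109.7 CPM in the wild-type libraries, against 128, 99.9 and 97.5 CPM in the labelled mutants. CYTC-2 had 13.9, 12.7 and 16.3 CPM against 12.8, 11.8 and 10.8 CPM. Both overlapped between the groups, and the interval of CYTC-2 was the widest of the respiratory genes (-0.64 to 0.13), with 12 reads in labelled mutant replicate 3. CYTC-1 made up 88.7 ± 1.52% of the pair in wild-type and 90.1 ± 0.737% in the labelled mutants (SD, n = 3).

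For complex IV, cytochrome c oxidase, AT3G15640, listed here as a subunit 5b gene and annotated as a rubredoxin-like protein, had 82.7, 72.6 and 81.6 CPM in the wild-type libraries, against 91.9, 75.7 and 69.5 CPM in the labelled mutants. COX6B (AT1G22450) had 91.5, 88.1 and 92.0 CPM against 94.6, 82.6 and 72.2 CPM. The labelled mutants of both genes spanned wild-type, with log2 fold changes of 0.02 (-0.25 to 0.28) and -0.10 (-0.35 to 0.15).

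Complex V has 3 genes of the catalytic beta subunit, AT5G08670, AT5G08680 and AT5G08690, next to each other on chromosome 5. AT5G08670 had 344, 318 and 358 CPM in the wild-type libraries, against 386, 329 and 305 CPM in the labelled mutants. AT5G08680 had 200.4, 193 and 239 CPM against 198, 195 and 169.7 CPM, and AT5G08690 had 345, 319 and 381 CPM against 333, 314 and 304 CPM. All 3 overlapped between the groups, with log2 fold changes of 0.00, -0.16 and -0.13. Their sum was 899 ± 75.0 CPM in the wild-type libraries, against 845 ± 69.5 CPM in the labelled mutants (SD, n = 3).

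The beta copies are similar in sequence, and from 15.8% to 23.7% of their 31-mers occur in another gene's mRNA on the same strand. Their coding sequences were identical at 91.0% to 94.4% of aligned bases. The middle 90 bases are shown with the 8 positions at which the copies differ in capitals, since only reads on such positions assign a transcript to a copy.
AT5G08670: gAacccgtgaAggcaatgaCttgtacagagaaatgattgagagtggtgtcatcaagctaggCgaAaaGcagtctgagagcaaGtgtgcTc
AT5G08680: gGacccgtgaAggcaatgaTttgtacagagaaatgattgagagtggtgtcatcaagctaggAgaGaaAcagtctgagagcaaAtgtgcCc
AT5G08690: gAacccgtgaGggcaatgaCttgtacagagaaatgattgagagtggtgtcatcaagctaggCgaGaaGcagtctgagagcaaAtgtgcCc
The share of AT5G08670 was 38.7%, 38.3% and 36.6% in wild-type and 42.1%, 39.2% and 39.2% in the labelled mutants, higher without overlap, and with reads of uncertain assignment (exact two-sided permutation p = 0.1, adjusted 0.22).

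The other ATP synthase genes encode parts of its stalks. ATP5 (AT5G13450), annotated as a delta subunit, had 234, 232 and 258 CPM in the wild-type libraries, against 219, 218 and 199 CPM in the labelled mutants, below wild-type without overlap. ATP3 (AT2G33040), the gamma subunit, had 238, 249.6 and 299 CPM against 239, 241 and 218 CPM, and AT5G47030, annotated as a delta or epsilon subunit, 155, 147 and 175 CPM against 177, 153 and 144 CPM. The last pair overlapped between the groups. The log2 fold changes were -0.18 (-0.41 to 0.05; edgeR adjusted p = 0.436) for ATP5, -0.17 for ATP3 and 0.00 for AT5G47030. All 6 complex V genes summed to 1562 ± 132 CPM in the wild-type libraries, against 1447 ± 106 CPM in the labelled mutants (SD, n = 3).

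Across the 11 families of copies, the share of the tested copy did not overlap between the groups in 5, namely GAMMA CA1, AT5G08670, AT3G55410, FUM1 and mMDH1. Each of these 5 had an exact permutation p of 0.1, and the smallest adjusted value was 0.22, so none passed, and this design cannot pass for any family. In CPM, 11.2% of all tested genes lay above and 12.4% below wild-type without overlap. The same proportion for shares over all gene families was not computed. Some gaps were minimal, as for GAMMA CA1, with 20.7% in wild-type replicate 1 and 20.8% in labelled mutant replicate 2. In the other 6 families the share of the tested copy overlapped, with differences from -1.11 points for IDH1 to 3.58 points for SDH2-1, the latter falling to 0.943 points without ucp1 ucp3 replicate 3. Of the isocitrate dehydrogenase copies that were not tested, IDH2 had a lower share (20.8%, 21.9% and 22.9% against 20.4%, 20.6% and 19.4%) and IDH-V a higher one (43.9%, 42.6% and 40.2% against 46.3%, 44.1% and 44.7%), both without overlap.

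**Figure D3:**
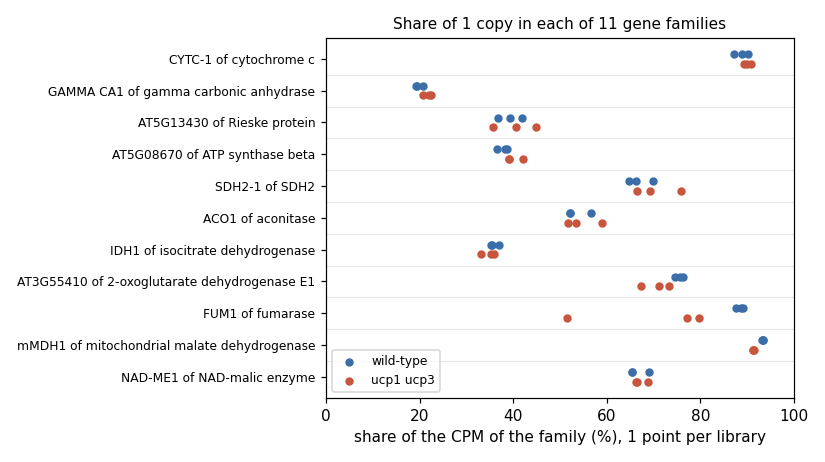
Share of 1 copy in the CPM of its family, in percent, for each library (points; 3 wild-type and 3 labelled mutants per family). FUM1 shows the widest gap, 87.7% to 89.2% in wild-type against 51.5% to 79.7% in the labelled mutants, and mMDH1 the tightest values.

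Levels of different genes were compared per length in the wild-type libraries. ATP5 was highest, at 292 ± 13.4 TPM (SD, n = 3), followed by mMDH1 at 263 ± 8.17 TPM and ACO1 at 242 ± 15.1 TPM. ATP3, CYTC-1 and AT5G47030 came next at 231 ± 25.6, 219 ± 10.8 and 214 ± 15.7 TPM, and these neighbours did not differ beyond their spread. FUM2 was lowest, at 11.6 ± 1.94 TPM, below AT5G65750 at 19.0 ± 2.59 TPM and mMDH2 at 20.9 ± 0.4 TPM. The 38 genes together made up 0.428 ± 0.0186% of all TPM in wild-type.

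Subunits of a complex did not stand at equal levels. Per length the beta genes of ATP synthase, present in several copies in each complex, together stood at 2.52, 2.23 and 2.20 times ATP3 in wild-type and at 2.60, 2.35 and 2.42 times in the labelled mutants, with overlap. Relative to ATP5 they stood at 1.87, 1.74 and 1.86 times against 2.08, 1.90 and 1.94 times, higher in the labelled mutants without overlap. Relative to AT5G47030 they stood at 2.54, 2.47 and 2.46 times against 2.32, 2.44 and 2.41 times, lower without overlap, and these ratios were not tested. In complex I, FRO1 stood at 2.22 ± 0.202 times EMB1467 in wild-type and 2.07 ± 0.0530 times in the labelled mutants, and CI51 at 1.43 ± 0.0925 and 1.51 ± 0.115 times. In complex IV, the single genes AT3G15640 and COX6B stood at a ratio of 1.06 ± 0.0496 in wild-type and 1.15 ± 0.0350 in the labelled mutants. The labelled mutants were higher without overlap, and this ratio was not tested either. Other complex IV genes were not added on either side, so the ratio does not give the balance of whole subunits. The order of the SDH2 copies depended on the scale, as SDH2-1 was above SDH2-2 in CPM but below it per length in wild-type (33.7 ± 2.98 against 38.8 ± 3.02 TPM), in each of the 3 libraries.

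**Figure D4:**
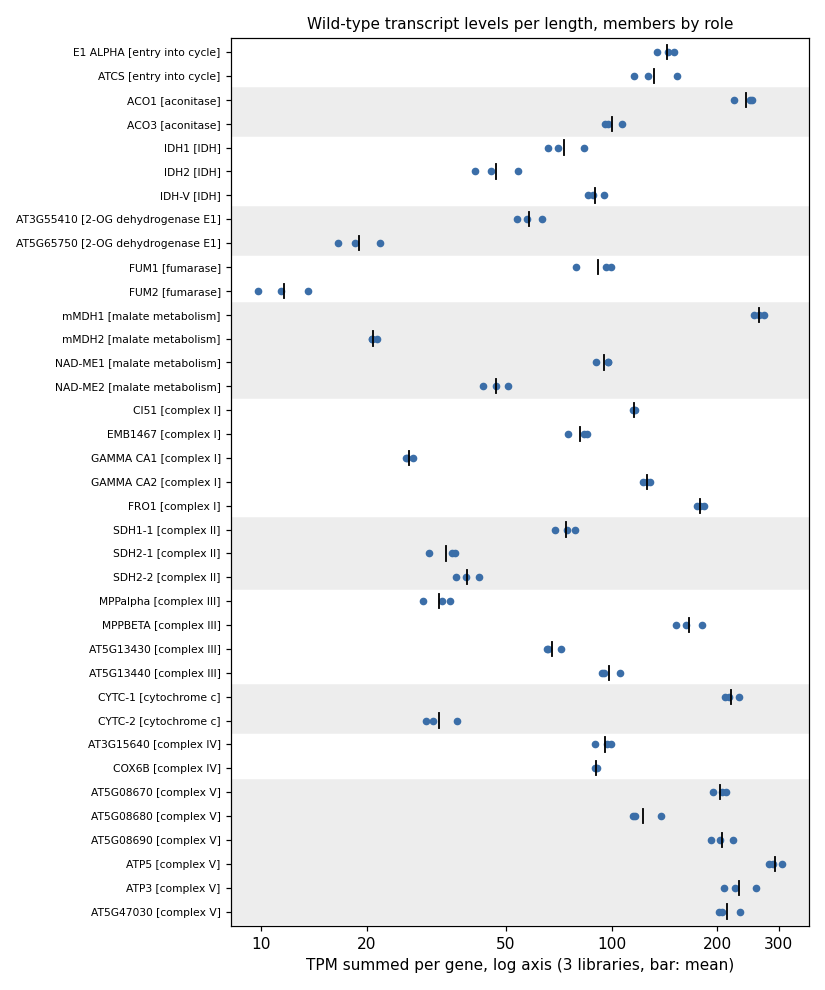
Deposited TPM summed per gene, for genes drawn from the set of 38, in the 3 wild-type libraries (points) with their mean (bar), on a log axis, grouped by role. Levels of the genes drawn run from 11.6 TPM for FUM2 to 292 TPM for ATP5, and copies of one enzyme stand far apart for cytochrome c, malate dehydrogenase and fumarase.

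Many nuclear genes of plant respiration are known for site II elements in their promoters, the Arabidopsis cytochrome c genes among them. The letters TGGGCC and TGGGCT were searched on both strands (also read as GGCCCA and AGCCCA; overlapping matches were counted separately) in the 250 bases before each annotated gene start. At least 1 was present for 16 of the 38 genes, or 42.1%, and in 19.2% of 27443 nuclear protein-coding genes. Both cytochrome c genes, 3 of 4 complex III genes and 4 of 6 complex V genes had one, and 0 of the 3 complex II genes, 0 of the 2 complex IV genes and 0 of the 2 fumarase genes. The telo-box letters AAACCCTA were found for 1 gene, MPPBETA, or 2.63%, against 4.49% of all promoters. A match is a description of these letters and not evidence of binding.

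The copies of 2-oxoglutarate dehydrogenase E1 differed in this respect, with 5 matches before AT5G65750 and 0 before AT3G55410, and mMDH1 had 2 and mMDH2 1. The promoters of AT5G65750 (chr5:26303423-26303672, plus strand), mMDH1 (chr1:19857147-19857396, minus strand) and CYTC-1 (chr1:8079037-8079286, plus strand) are shown from the TAIR10.1 genome in the direction of the gene, with site II letters in capitals, as an example from the cycle, from malate metabolism and from the respiratory chain.
AT5G65750: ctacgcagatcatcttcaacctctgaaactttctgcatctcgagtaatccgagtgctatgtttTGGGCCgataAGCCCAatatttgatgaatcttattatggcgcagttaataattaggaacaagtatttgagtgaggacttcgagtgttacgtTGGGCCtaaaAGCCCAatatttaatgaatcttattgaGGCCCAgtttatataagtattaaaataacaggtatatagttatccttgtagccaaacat
mMDH1: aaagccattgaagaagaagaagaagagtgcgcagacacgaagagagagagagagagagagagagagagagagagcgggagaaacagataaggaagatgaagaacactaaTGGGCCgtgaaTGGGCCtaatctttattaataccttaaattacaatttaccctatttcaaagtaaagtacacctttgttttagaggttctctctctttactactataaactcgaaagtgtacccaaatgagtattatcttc
CYTC-1: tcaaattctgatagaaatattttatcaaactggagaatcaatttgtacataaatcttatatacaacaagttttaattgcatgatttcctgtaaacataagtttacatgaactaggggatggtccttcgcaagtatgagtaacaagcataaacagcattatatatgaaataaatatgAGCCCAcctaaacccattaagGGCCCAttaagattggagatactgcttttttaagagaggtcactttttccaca

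A further 77 genes of the same pathways, listed by function, were read from the same fit. Of the 71 that passed the filter, 0 were called higher and 0 lower (0.781% and 0.482% of all tested genes), 3 had an unadjusted p under 0.05 (16.4% of all tested genes), and the median log2 fold change was -0.01. The labelled mutants lay above all wild-type libraries in 4 of the 71 and below them in 4, against 11.2% and 12.4% of all tested genes. The 6 that did not pass the filter were CSY5, IDH-III, IDH-IV, SDH2-3, AT1G32710 and AT5G25450, with at most 15 reads in any library. Of the 71 estimates 53.5% were below 0, against 50.3% of all tested genes. The lists differed, with 10 of 25 estimates below 0 for other complex I genes and 2 of 7 for other complex IV genes. In the list of other pyruvate dehydrogenase and TCA cycle genes, 10 of 13 estimates were below 0 and the median was -0.15. In that list AT1G54220, an E2 subunit gene of pyruvate dehydrogenase, had 25.0, 29.6 and 31.4 CPM in the wild-type libraries, against 19.6, 23.2 and 19.9 CPM in the labelled mutants, lower without overlap (log2 fold change -0.42; edgeR adjusted p = 0.181). AT5G55070, a dihydrolipoamide succinyltransferase gene, was at -0.27 on the log2 scale (edgeR adjusted p = 0.406).

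Among 25 other complex I genes the median was 0.06, with AT2G47690 at 24.4, 28.3 and 27.0 CPM in the wild-type libraries, against 37.5, 31.5 and 31.6 CPM among the labelled mutants, higher without overlap (log2 fold change 0.35; edgeR adjusted p = 0.224) and GAMMA CA3 at a log2 fold change of -0.18. Among 8 other complex II genes the median was -0.03. SDH1-2, the minor copy of the flavoprotein gene, had 1.64, 1.94 and 3.49 CPM in the wild-type libraries, against 3.88, 3.69 and 6.32 CPM among the labelled mutants. This was also without overlap (log2 fold change 0.78, -0.02 to 1.59, edgeR adjusted p = 0.319). These values rest on few reads, 8, 7 and 15 in wild-type against 17, 42 and 7 in the labelled mutants. SDH3-1 was at -0.30 on the log2 scale (edgeR adjusted p = 0.303), and 72.8% of its 31-mers are shared on the same strand, mainly with SDH3-2.

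The medians were -0.01 for 10 other complex III genes, 0.08 for 7 of complex IV and -0.03 for 8 of complex V. The members with the smallest p in these lists were AT1G51980 (log2 fold change -0.18) and AT1G15120 (-0.19) of complex III, AT2G47380 (0.21) and AT5G57815 (0.12) of complex IV, and MGP1 (-0.13) and AT2G19680 (-0.13) of complex V. None passed, with edgeR adjusted p-values from 0.436 (AT1G51980) to 0.736 (AT5G57815).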

How the data were processed

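Estimated counts and TPM per transcript model were deposited by the authors, with kallisto, DESeq2 and TAIR10 listed without versions, per the submitters' processing notes; index and strand setting are not given in the sources used here, so reads of overlapping genes on opposite strands were treated as not separable. Estimated counts of 35386 models were summed to 27416 genes and rounded. The deposited TPM values served for levels per length only. The test per gene used edgeR 4.0.16 under R 4.3.3 (default filter, TMM, robust quasi-likelihood F test, genotype as the only term), with Benjamini-Hochberg adjustment over the 17415 genes kept and a threshold of 0.05. Standard errors and intervals were derived from the F statistic of each gene. Shares of copies were compared with exact permutation tests, adjusted over 11 families. Alternatives were a replicate block, DESeq2 1.42.0, RLE size factors, library totals, no filter and leaving out each library. A count of 3 corresponds to 0.266 CPM in the deepest and 2.53 CPM in the shallowest library, covering counting error only. Nothing beyond the words on biological replicates says how samples of a group were separated, so p-values measure the spread between these samples. The genes and lists were chosen with earlier results of these data known. The rule for naming was values in every library for genes called, the 10 with the smallest p, copies of a family and the gene with the highest TPM of each role; the other genes of the 38 are given the same way, except 1 whose own values are not reported here, and other pathway genes if called or among the 2 smallest p of their list.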

Additional observations from a re-analysis of the deposited data

How the results depend on the processing

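The estimates of 23 of the 38 genes kept their direction in all 11 alternatives to the fit, and the 15 that did not had log2 fold changes of at most 0.08 in size. Their ranges with 1 library left out were CYTC-1 -0.19 to 0.03, CI51 -0.01 to 0.14, EMB1467 -0.07 to 0.01, MPPBETA -0.14 to 0.00, AT5G13430 -0.11 to 0.20, AT3G15640 -0.10 to 0.08, AT5G08670 -0.10 to 0.08, AT5G47030 -0.09 to 0.07, SDH1-1 -0.11 to 0.00, SDH2-2 -0.11 to 0.12, ACO1 -0.05 to 0.06, ACO3 -0.04 to 0.07, IDH-V -0.09 to 0.04, mMDH2 -0.08 to 0.04, NAD-ME1 -0.08 to 0.03. With library totals in place of TMM, which moved the median of all genes to -0.06, the values were -0.04 for AT3G15640 and SDH2-2 and -0.06 for AT5G08670, ACO1 and ACO3. The others that turned were at 0.00: AT5G08670 with the replicate block, AT5G47030 and mMDH2 with RLE size factors and ACO3 without the filter. Of the 38 genes, 0 were called by the main test, 1 with the replicate block (FUM2, higher, adjusted p = 0.00647), 2 with DESeq2 (FUM2 higher and 1 lower, mMDH1) and from 0 to 1, all higher, with 1 library left out. No pairing of the libraries by replicate number was seen. Deviations of same-numbered libraries correlated at -0.0682, -0.0964 and -0.0111, and 0 of 6 libraries correlated best with their own number. With 3 libraries per group, 1 of them standing apart, these correlations cannot exclude a shared batch. The block gave 167 calls over all genes. Over all genes 220 were called, 389 with DESeq2, 490 without the filter and from 53 to 673 with 1 library left out; the cause was not tested. The median of the 38 lay between -0.11 and -0.01 with 1 library left out. The shares of AT5G13430 (-1.14 to 3.50 points), ACO1 (-1.07 to 2.57) and NAD-ME1 (-0.31 to 1.75) changed direction when 1 library was left out. Depth limits CYTC-2 most, with 12 reads in the shallowest library.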

Other observations

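The 38 genes tended to be highest in 1 library and lowest in another. Wild-type replicate 3 had the highest CPM of the 6 libraries in 20 of the 38 genes, against 20.2% of all tested genes. Replicate 3 labelled ucp1 ucp3 had the lowest in 22 of the 38, against 27.3% of all tested genes, and that library was highest in 4 genes. Relative to the wild-type mean, the median over the 38 genes was 0.10 in wild-type replicate 3 and -0.15 in replicate 3 labelled ucp1 ucp3 on the log2 scale. No test of this pattern was made.

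Most of the 38 genes have 1 transcript model in the files (25), and 13 have more. In FUM1 the second model held 45.9%, 27.6% and 39.2% of the estimated reads of the gene in the wild-type libraries, against 26.9%, 8.18% and 0% in labelled mutant replicates 1 to 3. In IDH2 the second model held 22.6%, 13.5% and 34.5% in wild-type and 7.89%, 24.7% and 41.9% in the labelled mutants, with no order between the groups. In FUM2 the third model had 18.8 estimated reads in labelled mutant replicate 3 and at most 6.72 in any other library. These splits are kallisto estimates between models that share most of their sequence, and they were not tested.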
